A study of Mus musculus with 16 samples.

Results

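Expression of 40 cell cycle and proliferation genes was followed in liver and white adipose tissue of DIO (diet-induced obese) mice after 8 weeks with or without halofuginone, an inhibitor of prolyl-tRNA synthetase. The genes were chosen by symbol for their known part in cell division, with earlier results of these data known. All 40 were found among the 22322 genes of each tissue's table. They comprise 18 genes of G2 and mitosis, 10 of DNA replication, 9 of G1 (cyclins, cyclin-dependent kinases and E2f1) and 3 inhibitors of cyclin-dependent kinases. Every group was of obese mice, and no lean group was compared. The libraries labelled HFD are the vehicle group, and those labelled H100 come from mice injected intraperitoneally with 100 μg/kg halofuginone every 2 days. Liver had 5 libraries per group and white fat 3 per group. The labels give no strain, sex, age or fat depot, and they do not say that each library came from its own animal, so p-values measure the spread between these samples, which may in part be technical.

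A dividing cell passes from G1, in which D-type cyclins and their kinases release E2F transcription factors from the retinoblastoma protein, into S phase, in which the MCM helicase and its partners copy the DNA, and then through G2 into mitosis, driven by Cdk1 with cyclins A and B. Genes of mitosis are transcribed almost only in cycling cells, so in whole tissue they track the few cells that divide, while D-type cyclins, Pcna and some MCM genes are also transcribed in resting cells. In adult liver most hepatocytes rest in G0, and in obese fat the dividing cells include macrophages and stromal cells. In bulk tissue, fewer cycling cells and less RNA per cycling cell cannot be told apart.

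The libraries held 20309956 to 31980683 counts in liver and 17070614 to 21387799 in fat, and levels are given as CPM, counts scaled for library size with TMM factors. A count of 0 allows up to 3 counts, or 0.0983 to 0.150 CPM in liver and 0.139 to 0.1799 CPM in fat, for counting error only. Hepatocyte markers summed to 129000 to 143300 CPM in vehicle liver and 49290 to 120800 CPM with halofuginone, and adipocyte markers to 5327 to 11350 CPM in vehicle fat and 6705 to 9721 CPM with halofuginone, with none of either list at 0 in its own tissue. A pair of libraries stood apart. Halofuginone liver replicate 1 was above the other 9 livers in summed markers of macrophages (475 CPM against 251 to 375) and of T and NK cells (10.5 CPM against 1.64 to 5.67). On the first principal component of log2(CPM + 1) over all tested genes, which held 60.6% of the variance, it lay at −20.7, next to the vehicle livers (−29.6 to −22.7) and away from the other 4 treated livers (24.9 to 49.2). Vehicle fat replicate 3 was above the other 5 fat libraries in summed macrophage markers (17670 CPM against 5861 to 9000) and epididymis markers (63.7 CPM against 0.444 to 4.98), and lowest in adipocyte markers. Nearly all of that epididymis sum was Crisp1, at 63.6 CPM. The other markers of the list were at 0 to 0.540 CPM in vehicle fat. Results are given with and without the pair of libraries that stood apart, where they matter.

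On the length-scaled FPKM values, the vehicle means of the mitotic genes ran from 0.0260 (Cenpf) to 0.774 FPKM (Cdk1) in liver and from 0.410 (Cenpf) to 8.27 FPKM (Cdk1) in fat. The highest vehicle means in liver were those of Cdk4 (18.3 FPKM), Ccnd3 (15.9 FPKM), Pcna (12.3 FPKM) and Ccnd1 (10.5 FPKM). In fat they were those of Pcna (72.2 FPKM), Cdkn1a (67.3 FPKM), Ccnd3 (61.9 FPKM) and Cdk4 (41.6 FPKM). Liver and fat were deposited as separate tables and normalised separately, so these levels are set side by side and not compared between tissues.

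In halofuginone-treated liver, 8 of the 31 members that could be tested were called: Ccnd1, E2f1, Cdk1, Ccnd3, Aurka and Tpx2 fell, and Mcm7 and Cdkn2c rose. Called genes have an adjusted p under 0.05 in edgeR's quasi-likelihood test, a rule that 23.2% of the 12311 genes tested in liver also met, 10.5% as falls and 12.7% as rises. Of the 40 genes, 31 had enough counts to be tested, so the 8 are 6 falls and 2 rises among 31. Of the falls, Cdk1 and Tpx2 passed the filter on low counts through their vehicle libraries. The split of falls and rises is therefore no support for a direction. As a total, 8 of 31 is near the 23.2% of all genes tested. With library size alone in place of TMM factors the calls were 4 rises (Mcm7, Cdkn2c, Cdkn1b and Pcna) and 3 falls (Ccnd1, E2f1 and Cdk1). That scaling moved the median of all genes from 0.02 to 0.17 on the log2 scale and the share of rises among called genes from 54.7 to 76.9%. The median log2 fold change of the 31 tested genes was −0.25, beside 0.02 for all genes tested, but its sign turned over other sets of tested members, at 0.036 for genes of at least 1 CPM and at 0.14 and 0.22 on log2 FPKM with pseudocounts of 1 and 0.1, and it was −0.58 with no filter. Without halofuginone replicate 1 the number called was 16, and it was 5 without vehicle replicate 2, vehicle replicate 5, halofuginone replicate 2 or halofuginone replicate 3. The number of all genes called also moved widely when single libraries were left out, over the range given in the last section.

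In fat none of the 40 genes was called, nor was any of the 14030 genes tested (0% called), yet for 16 of the 18 mitotic genes every treated library lay below every vehicle library. At an unadjusted p under 0.05, 22 of the 40 genes were lower and 0 higher, beside 7.91% of all tested genes lower and 5.50% higher. These 22 are 17 of the 18 mitotic genes (all but Cenpe), Mcm5, Mcm6 and Rrm2 of DNA replication, and Ccne1 and E2f1 of G1. The median log2 fold change was −0.95 over the 40 genes and 0.01 over all genes tested. The count of 0 depends on the tool: DESeq2 called 15 of the 40 (all lower) among 671 genes, and 1 edgeR fit of all 16 libraries called 6 (Cdk1, Birc5, Ccna2, Aurkb, Bub1 and Kif20a, all lower) among 334 genes. Without vehicle replicate 3 the median was −0.68, and 18 of the 40 were lower at an unadjusted p under 0.05.

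**Figure D1:**
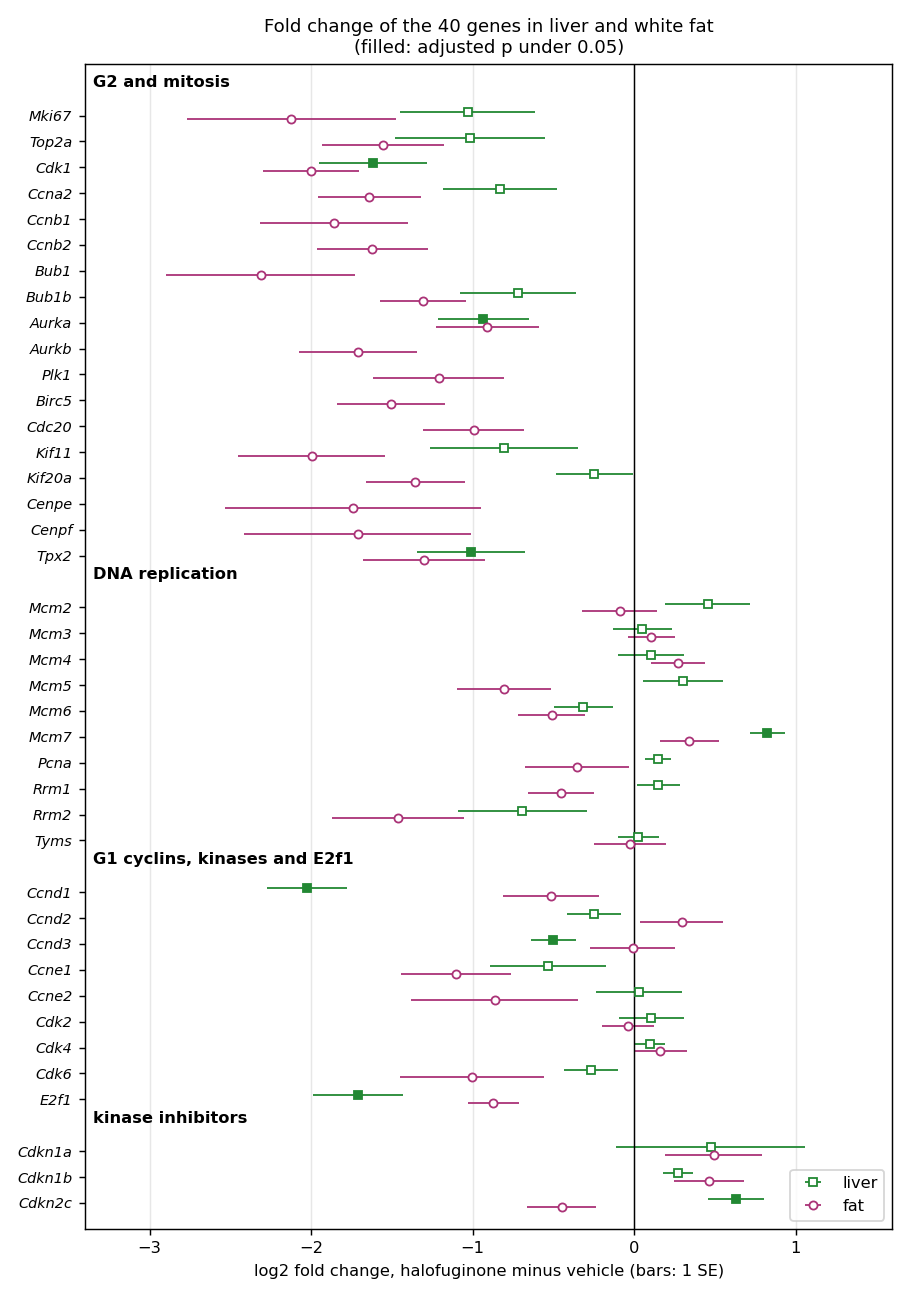
Log2 fold change (horizontal axis, halofuginone minus vehicle) with 1 standard error for each of the 40 genes, grouped by role, in liver (squares, 31 genes tested) and white fat (circles, 40 tested); filled symbols are called. All 18 mitotic genes lie left of 0 in fat, from −2.31 to −0.91, while the replication genes lie on both sides in both tissues.

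The mitotic genes of liver were sparse, with 0 to 66 counts per library, and 9 of the 18 were not tested: Ccnb1, Ccnb2, Bub1, Aurkb, Plk1, Birc5, Cdc20, Cenpe and Cenpf. Another 6 (Mki67, Top2a, Cdk1, Ccna2, Kif11 and Tpx2) reached the count filter's level in all 5 vehicle libraries but not in every halofuginone library, so the number that passed the filter is no support for a direction. The mean CPM was lower under halofuginone in 18 of 18 mitotic genes. On FPKM the mean of Kif20a was higher with halofuginone (0.304 FPKM) than with vehicle (0.280 FPKM). The summed level of the 18 genes was 13.3, 12.1, 9.23, 14.3 and 14.1 CPM in the 5 vehicle livers and 12.5, 5.67, 6.23, 4.21 and 5.14 CPM in halofuginone replicates 1 to 5. Of the treated livers 4 were below every vehicle liver, and replicate 1 lay within the vehicle range. Replicate 1 was the highest treated library for 15 of the 18 genes. The treated mean was 6.75 ± 3.31 CPM (SD, n = 5), or 5.31 ± 0.859 CPM (SD, n = 4) without it, against 12.6 ± 2.09 CPM (SD, n = 5) in vehicle.

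Of the mitotic genes in liver, Cdk1, Aurka and Tpx2 fell. Cdk1 and Tpx2 each reached the count filter's level in 5 of 5 vehicle libraries but only 1 of 5 halofuginone libraries, so both were tested through their vehicle level. Cdk1 (ENSMUSG00000019942), the kinase that triggers mitosis, was at 0.832, 0.751, 1.12, 1.01 and 1.21 CPM with vehicle and 0.646, 0.224, 0.286, 0.154 and 0.335 CPM with halofuginone. No treated liver reached the lowest vehicle value, and the fall was 3.06-fold (log2 fold change −1.62, SE 0.33, adjusted p = 0.0105). It was called without any single library, with a log2 fold change between −1.98 and −1.45. Aurka (ENSMUSG00000027496), a kinase of the spindle poles, was at 1.47, 1.15, 0.886, 1.42 and 1.54 CPM with vehicle and 1.14, 0.671, 0.716, 0.502 and 0.410 CPM with halofuginone. Treated replicate 1 lay inside the vehicle range and the other 4 below it (log2 fold change −0.93, SE 0.28, adjusted p = 0.0356). Tpx2 (ENSMUSG00000027469), which targets Aurka to the spindle, was at 0.594, 0.501, 0.559, 0.598 and 0.656 CPM with vehicle and 0.596, 0.298, 0.215, 0.232 and 0.149 CPM with halofuginone, again with replicate 1 inside the vehicle range (log2 fold change −1.01, SE 0.33, adjusted p = 0.0487). The calls of these last 2 genes were fragile. Aurka was lost without any 1 of 8 libraries (adjusted p 0.0614 to 0.0828, kept only without vehicle replicate 3 or halofuginone replicate 1), and Tpx2 without any 1 of 9 (adjusted p 0.0786 to 0.121, kept only without halofuginone replicate 1). Tpx2 also missed the threshold with DESeq2, with library size alone and with no filter on low counts. The same held with a replicate block and in 1 fit of all 16 libraries (adjusted p 0.0519 to 0.0843 over these 5).

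Birc5, which encodes the chromosomal passenger protein survivin, was too low to be tested in liver, with 0.317, 0.952, 0.513, 0.598 and 0.623 CPM with vehicle and 0.248, 0.186, 0.107, 0.193 and 0.186 CPM with halofuginone. All 5 treated livers were below all 5 vehicle livers, and with no filter on low counts or with DESeq2 (log2 fold change −1.72, adjusted p = 0.00271) it was called. Among the 31 members tested in liver, 3 (Ccnd1, E2f1 and Cdk1) were lower with halofuginone without overlap of the groups, beside 6.55% of all tested genes. Birc5, not tested, had the same order. Another 3 (Mcm7, Cdkn1b and Cdkn2c) were higher without overlap, beside 5.13%. Mki67, the proliferation antigen Ki-67, was at 2.18, 2.15, 1.59, 2.39 and 2.16 CPM with vehicle and 2.34, 0.708, 1.11, 0.232 and 0.856 CPM with halofuginone. Treated replicate 1 was near the top of the vehicle range, the other 4 were below it, and the gene was not called (log2 fold change −1.03, SE 0.42, adjusted p = 0.0921). Top2a, the topoisomerase that untangles sister chromatids, was at 1.11, 1.35, 0.746, 0.934 and 1.90 CPM with vehicle and 1.39, 0.596, 0.501, 0.116 and 0.484 CPM with halofuginone, with the same replicate inside the vehicle range (log2 fold change −1.01, SE 0.46, adjusted p = 0.129). Without halofuginone replicate 1, both were called (log2 fold changes −1.54 for Mki67 and −1.53 for Top2a, adjusted p = 0.00346 and 0.0107), as were Ccna2, Bub1b, Kif11 and Birc5 of mitosis, Mcm6 and Cdkn1b. The number of all genes called also moved widely when single libraries were left out, so these added calls are not read as particular to these genes. Halofuginone replicate 1 also had the highest macrophage and T and NK cell marker sums of the 10 livers. It lay next to the vehicle livers on the first principal component of all tested genes. The part of either in its mitotic level was not tested. Over the groups, 4 of 7 fibroblast and stellate cell markers fell in liver (summed level 211 to 293 CPM with vehicle and 141 to 231 CPM with halofuginone, none at 0), as did 1 of 8 macrophage markers and 1 of 8 hepatocyte markers. Of 6 endothelial markers, Pecam1 and Cdh5 fell and Kdr rose (summed level 182 to 222 CPM with vehicle and 163 to 223 CPM with halofuginone, none at 0). Spp1 of 5 cholangiocyte markers, Alas2 of 6 erythroid markers and Lipe of 6 adipocyte markers also fell. Among all genes tested in liver 10.5% fell and 12.7% rose, so 1 fall in a list is not read as a change of that cell type. The part of these cell types in the result was not tested.

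Other mitotic genes in liver overlapped between the groups. Ccna2, the cyclin of S phase and G2, ranged from 0.653 to 1.15 CPM with vehicle and from 0.298 to 0.944 CPM with halofuginone. Bub1b, a spindle checkpoint kinase, ranged from 0.326 to 1.27 and from 0.372 to 0.894 CPM. Kif11, the motor that separates the spindle poles, ranged from 0.513 to 1.08 and from 0.186 to 1.09 CPM. Kif20a, a motor of cytokinesis, had the smallest log2 fold change of the tested mitotic genes at −0.25, with 0.653 to 1.11 CPM with vehicle and 0.497 to 1.01 CPM with halofuginone. Ccnb1, Ccnb2, Bub1, Aurkb, Plk1, Cdc20, Cenpe and Cenpf reached at most 0.672 CPM (Ccnb2 and Plk1 in vehicle replicate 4), and Ccnb1, Plk1, Cdc20 and Cenpf each had a treated library at 0 counts, Cenpf a vehicle library as well.

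**Figure D2:**
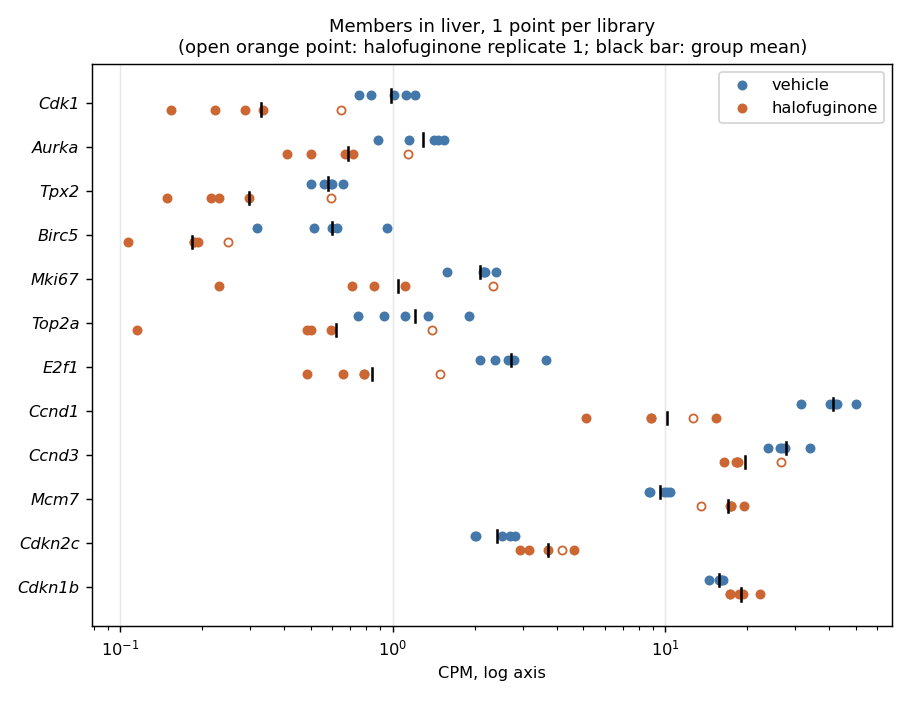
CPM on a log axis in each of the 10 liver libraries (blue, 5 vehicle; orange, 5 halofuginone) for the 8 called genes and for Birc5, Mki67, Top2a and Cdkn1b, with the group mean as a black bar; the open orange point is halofuginone replicate 1. For Mki67, Top2a, Aurka and Tpx2 that point lies among the vehicle points while the other 4 treated livers lie below them, and for Ccnd1, E2f1 and Cdk1 all treated points lie below the vehicle points.

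In white fat the mitotic genes were lower in treated libraries with little overlap. Their summed level was 133, 110 and 266 CPM in the vehicle libraries and 47.3, 57.5 and 59.6 CPM in the treated ones, that is 169.7 ± 84.2 CPM (SD, n = 3) against 54.8 ± 6.59 CPM (SD, n = 3). The highest treated library was below the lowest vehicle library. Of the 18 genes, 16 had all treated libraries below all vehicle libraries, the exceptions being Cenpe and Cenpf. Over all 40 genes this held for 21, beside 10.4% of all tested genes, and the opposite order for 1 (Mcm4), beside 10.2%. Vehicle replicate 3 was the highest vehicle library for 18 of 18 mitotic genes. Without it the vehicle libraries summed to 121 ± 15.8 CPM (SD, n = 2).

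Cdk1 and the cyclins that partner it were lower in every treated fat library. Cdk1 was at 9.35, 8.66 and 13.6 CPM with vehicle and 2.49, 2.14 and 3.26 CPM with halofuginone, 4.00-fold lower on average and with every treated library below every vehicle library (log2 fold change −2.0, SE 0.30, adjusted p = 0.105). Ccna2 was at 10.2, 9.76 and 18.2 CPM with vehicle and 3.34, 4.69 and 4.21 CPM with halofuginone (log2 fold change −1.64, SE 0.32, adjusted p = 0.156). Ccnb1, a B-type cyclin that activates Cdk1 at mitotic entry, was at 4.80, 5.88 and 9.52 CPM with vehicle and 1.08, 2.79 and 1.68 CPM with halofuginone (log2 fold change −1.86, SE 0.46, adjusted p = 0.202). For both cyclins the highest treated value stayed below the lowest vehicle value. Ccnb2, the other B-type cyclin, was at 4.08, 4.66 and 7.33 CPM with vehicle and 1.64, 1.67 and 1.89 CPM with halofuginone (log2 fold change −1.62, SE 0.34, adjusted p = 0.163). Its 3 treated libraries lay close together, from 1.64 to 1.89 CPM.

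Mki67 and Top2a, markers of proliferation in pathology, varied widely between the vehicle libraries of fat. Mki67 was at 23.5, 10.98 and 71.5 CPM with vehicle and 6.57, 9.48 and 8.26 CPM with halofuginone (log2 fold change −2.12, SE 0.65, adjusted p = 0.263). The 3 treated libraries were close together and vehicle replicate 3 was far above the rest, and without that library the log2 fold change was −1.09. Top2a was at 20.1, 13.2 and 32.5 CPM with vehicle and 5.21, 7.95 and 9.21 CPM with halofuginone (log2 fold change −1.56, SE 0.38, adjusted p = 0.195), and it was −1.16 without the same library. Birc5 was at 4.08, 4.83 and 6.52 CPM with vehicle and 1.59, 1.63 and 2.21 CPM with halofuginone (log2 fold change −1.51, SE 0.34, adjusted p = 0.172). For both genes all treated libraries were below all vehicle libraries.

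The spindle checkpoint kinases, the other mitotic kinases and Cdc20 had the same order in fat. Bub1, a kinase of the spindle checkpoint, was at 2.10, 1.22 and 4.39 CPM with vehicle and 0.453, 0.604 and 0.473 CPM with halofuginone and was 4.97-fold lower on average (log2 fold change −2.31, SE 0.59, adjusted p = 0.210). Only 1 of its 3 treated libraries reached the count filter's level, and without vehicle replicate 3 its log2 fold change was −1.68 (adjusted p = 0.336). Bub1b was at 9.47, 10.5 and 14.03 CPM with vehicle and 3.62, 4.60 and 5.52 CPM with halofuginone (log2 fold change −1.31, SE 0.26, adjusted p = 0.159). Neither gene overlapped between groups. Aurkb, the kinase of the chromosomal passenger complex, was at 4.20, 4.88 and 6.003 CPM with vehicle and 1.19, 1.301 and 2.10 CPM with halofuginone (log2 fold change −1.71, SE 0.36, adjusted p = 0.164). Aurka was at 3.66, 4.22 and 5.60 CPM with vehicle and 2.83, 2.23 and 2.10 CPM with halofuginone (log2 fold change −0.91, SE 0.32, adjusted p = 0.311), the smallest difference of the mitotic genes in fat. Plk1, a kinase of mitotic entry and exit, was at 2.46, 4.11 and 6.003 CPM with vehicle and 1.76, 1.72 and 1.95 CPM with halofuginone (log2 fold change −1.21, SE 0.40, adjusted p = 0.292). Cdc20, which activates the anaphase-promoting complex, was at 4.62, 4.83 and 7.56 CPM with vehicle and 2.49, 2.93 and 3.10 CPM with halofuginone (log2 fold change −0.99, SE 0.31, adjusted p = 0.274). The treated libraries were below the vehicle libraries for each of these kinases and for Cdc20.

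The motors Kif11 and Kif20a, and Tpx2, were lower in every treated fat library. Kif11 was at 6.66, 3.22 and 10.3 CPM with vehicle and 1.64, 1.72 and 1.68 CPM with halofuginone (log2 fold change −2.0, SE 0.46, adjusted p = 0.175). Kif20a was at 6.48, 7.71 and 10.2 CPM with vehicle and 3.17, 2.42 and 3.95 CPM with halofuginone (log2 fold change −1.36, SE 0.31, adjusted p = 0.174). Tpx2 was at 10.7, 8.82 and 22.5 CPM with vehicle and 4.87, 5.996 and 6.15 CPM with halofuginone (log2 fold change −1.30, SE 0.38, adjusted p = 0.246). Their treated libraries were all below their vehicle libraries. Cenpe and Cenpf, both large kinetochore proteins, overlapped, with vehicle replicate 2 inside the treated range. Cenpf was at 2.88, 1.39 and 9.24 CPM with vehicle and 1.42, 1.58 and 1.11 CPM with halofuginone (log2 fold change −1.71, SE 0.70, adjusted p = 0.360). Cenpe was at 3.48, 1.39 and 10.9 CPM with vehicle and 1.93, 2.05 and 0.736 CPM with halofuginone, with an unadjusted p of 0.0650. Without vehicle replicate 3 the log2 fold changes of Tpx2 and Cenpf were −0.78 and −0.64.

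**Figure D3:**
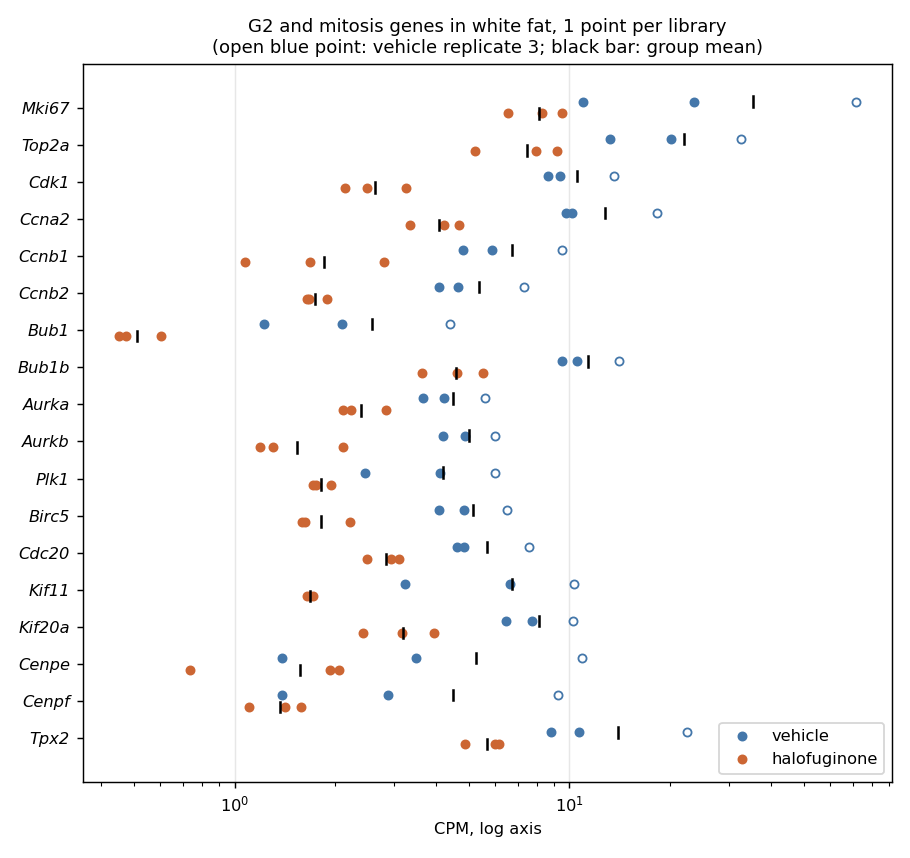
CPM on a log axis in each of the 6 white fat libraries (blue, 3 vehicle; orange, 3 halofuginone) for the 18 mitotic genes, with the group mean as a black bar; the open blue point is vehicle replicate 3. The orange points lie left of all blue points for 16 genes and mix with them for Cenpe and Cenpf, and the open point is the highest in every row.

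Most macrophage markers were lower with halofuginone in fat, as were the mitotic genes, but so were markers of some other cell types. Of 8 macrophage markers, 7 were lower under halofuginone at an unadjusted p under 0.05 and 0 were higher, beside 7.91% and 5.50% of all tested genes. For 6 the treated libraries were below all vehicle libraries, beside 10.4% of all tested genes. Adgre1 (encoding F4/80), for example, was at 334 to 451 CPM with vehicle and 123 to 138 CPM with halofuginone. Their summed level was 9000, 6989 and 17670 CPM with vehicle and 5861, 8159 and 6035 CPM with halofuginone, and these sums overlapped, with Gpnmb (4378 CPM with vehicle and 3500 CPM with halofuginone on average, unadjusted p = 0.514) and Lyz2 (4130 and 2058 CPM) adding the most CPM to them. Of 5 Kupffer cell markers, the 3 tested (Vsig4, Marco and Cd5l) were lower at an unadjusted p under 0.05, and the list's summed level did not overlap between groups, at 13.4 to 62.2 CPM with vehicle and 1.86 to 4.53 CPM with halofuginone. Clec4f of that list was at 0 in all treated libraries and at most 0.0600 CPM with vehicle, under the 0.139 CPM that a count of 0 allows. No macrophage marker was at 0, and replicate 3 was the highest vehicle library in the macrophage and mitotic sums. T and NK cell markers summed to 35.7 to 55.8 CPM with vehicle and 22.0 to 73.9 CPM with halofuginone, and 0 of 9 passed an unadjusted p of 0.05. Fibroblast markers summed to 3832 to 5174 CPM with vehicle and 2827 to 3391 CPM with halofuginone, with no overlap. Skeletal muscle markers, mostly Acta1, summed to 91.5 to 172 CPM with vehicle and 51.2 to 60.8 CPM with halofuginone, also with no overlap. The part of these cell types in the mitotic result was not tested.

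**Figure D4:**
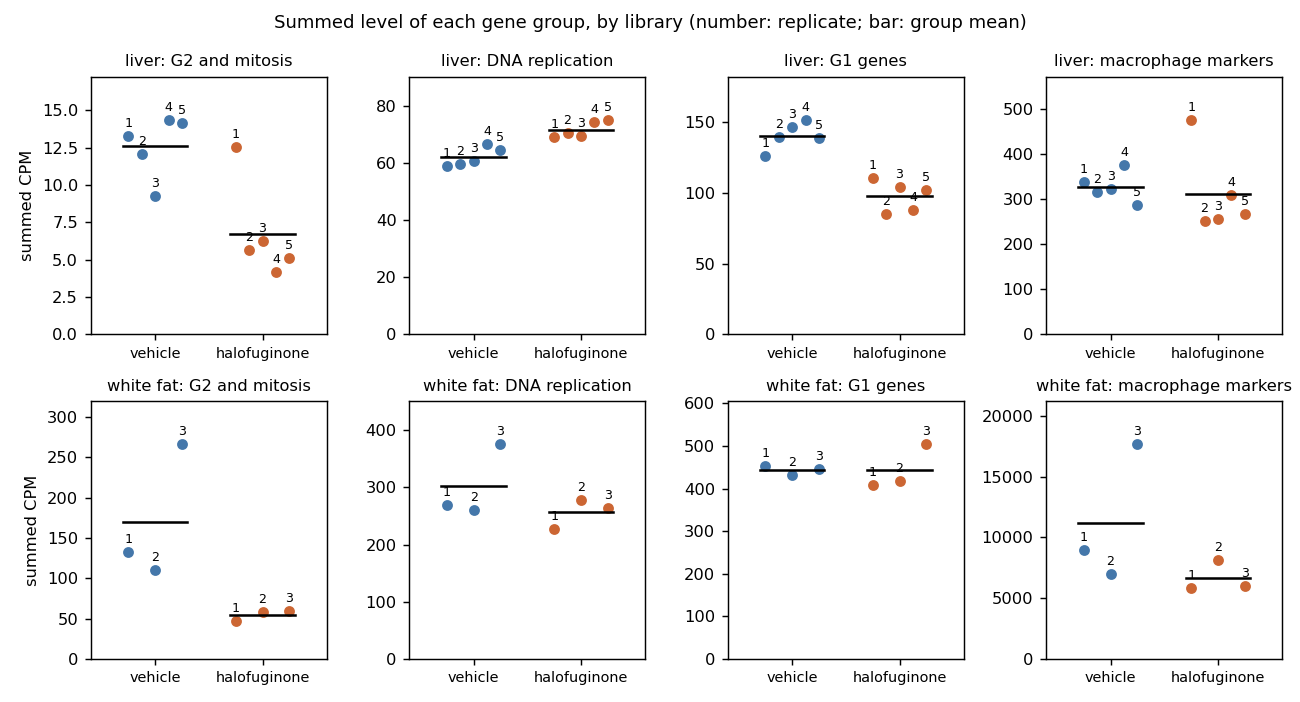
Summed CPM (vertical axes from 0) of the mitotic, DNA replication and G1 genes and of 8 macrophage markers in each library, numbered by replicate, with the group mean as a bar, in liver (top row) and white fat (bottom row). Halofuginone liver replicate 1 is high in the mitotic and macrophage sums of liver, and vehicle fat replicate 3 in those of fat. The groups do not overlap in the G1 sum of liver (lower with halofuginone), the DNA replication sum of liver (higher) or the mitotic sum of fat (lower).

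Promoters of the members are shown for a few genes because the mitotic genes were low together in fat. Genes of mitosis commonly carry the CHR (cell cycle genes homology region), read by the DREAM and MuvB complexes, next to CCAAT boxes bound by NF-Y, and replication genes carry E2F sites. RefSeq windows of the build GRCm38.p6, from 250 bases before to 50 after a gene's start, were matched by symbol for 32 of the 40 genes (36 windows, since some genes have 2). The windows were searched on both strands for the CHR as TTTGAA or TTCGAA, for E2F sites as TTTGGCGC, TTTCCCGC, TTTGCCGC or TTTCGCGC, and for CCAAT. The CHR letters were found in 11 of 14 mitotic promoters (78.6%), 2 of 10 replication windows, 0 of 7 G1 windows and 19.2% of all 32851 windows. CCAAT was found in 13 of 14 mitotic promoters (92.9%), 9 of 10 replication windows and 37.4% of all windows. E2F letters were found in 4 of 10 replication windows (Mcm3, Mcm5, Mcm6 and Mcm7), 1 of 14 mitotic promoters (Cdk1) and 2.27% of all windows. A match describes the letters and does not show a bound site. The 250 bases before the start are printed 5′ to 3′ for 4 mitotic genes lower in every treated fat library and for 2 replication genes, with all matches in capitals. They are Cdk1 (chr10:69352913-69353162, minus strand), Top2a (chr11:99024190-99024439, minus strand), Mki67 (chr7:135716380-135716629, minus strand), Cdc20 (chr4:118437344-118437593, minus strand), Mcm5 (chr8:75109259-75109508, plus strand) and 1 of the windows of Mcm7 (chr5:138171884-138172133, minus strand).
Cdk1: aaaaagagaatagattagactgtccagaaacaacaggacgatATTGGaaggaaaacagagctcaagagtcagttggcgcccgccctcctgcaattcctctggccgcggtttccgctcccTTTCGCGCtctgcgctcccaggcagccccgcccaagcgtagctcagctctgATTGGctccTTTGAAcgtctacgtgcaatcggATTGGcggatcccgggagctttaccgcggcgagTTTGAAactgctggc
Top2a: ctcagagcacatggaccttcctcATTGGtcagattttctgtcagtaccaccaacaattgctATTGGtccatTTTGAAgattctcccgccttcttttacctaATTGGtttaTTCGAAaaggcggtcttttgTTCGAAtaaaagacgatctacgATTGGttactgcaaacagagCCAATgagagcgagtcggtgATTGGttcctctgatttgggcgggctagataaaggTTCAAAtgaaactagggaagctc
Mki67: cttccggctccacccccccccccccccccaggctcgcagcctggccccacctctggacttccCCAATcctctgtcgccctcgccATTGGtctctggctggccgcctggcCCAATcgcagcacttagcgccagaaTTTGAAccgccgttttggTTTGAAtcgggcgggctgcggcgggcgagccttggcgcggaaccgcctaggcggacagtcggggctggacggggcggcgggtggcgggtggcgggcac
Cdc20: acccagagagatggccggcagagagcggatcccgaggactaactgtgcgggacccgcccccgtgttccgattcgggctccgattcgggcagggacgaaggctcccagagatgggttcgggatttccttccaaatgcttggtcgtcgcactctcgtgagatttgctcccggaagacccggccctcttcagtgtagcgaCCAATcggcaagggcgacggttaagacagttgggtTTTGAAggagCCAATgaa
Mcm5: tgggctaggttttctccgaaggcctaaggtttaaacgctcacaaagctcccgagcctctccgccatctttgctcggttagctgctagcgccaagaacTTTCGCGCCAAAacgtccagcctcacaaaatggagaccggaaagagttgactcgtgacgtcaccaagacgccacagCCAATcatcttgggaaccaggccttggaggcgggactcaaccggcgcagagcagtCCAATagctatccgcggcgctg
Mcm7: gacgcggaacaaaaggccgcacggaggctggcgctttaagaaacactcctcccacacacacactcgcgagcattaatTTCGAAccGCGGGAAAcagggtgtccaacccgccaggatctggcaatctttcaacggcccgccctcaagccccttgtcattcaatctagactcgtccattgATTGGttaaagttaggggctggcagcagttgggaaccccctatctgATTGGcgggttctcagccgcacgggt
In Cdk1 an E2F match lies upstream of CCAAT boxes (on the other strand, read as ATTGG) that alternate with CHR matches, and in Cdc20 the CHR match lies between CCAAT boxes close to the start. Top2a has the most matches, with 4 of the CHR and 6 of CCAAT. In Mcm5 the E2F matches overlap, 1 on each strand.

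The DNA replication genes did not move as a group. Of 10, only Mcm7 was called in liver and none in fat, and the mean CPM was higher under halofuginone for 8 in liver and for 3 in fat. Mcm7 (ENSMUSG00000029730), a subunit of the MCM helicase, was at 8.71, 8.82, 10.4, 9.90 and 10.2 CPM with vehicle and 13.5, 17.3, 17.4, 17.4 and 19.4 CPM with halofuginone. Every treated liver was above every vehicle liver, and Mcm7 rose 1.77-fold (log2 fold change 0.82, SE 0.11, adjusted p = 0.00284), a call that leaving out any single library kept (log2 fold changes 0.77 to 0.87). In fat Mcm7 was at 23.3, 28.7 and 20.5 CPM with vehicle and 34.9, 27.7 and 29.4 CPM with halofuginone, with overlap.

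The other MCM subunits of liver overlapped between groups and were not called. Mcm2 ranged from 1.73 to 4.22 CPM with vehicle and from 2.24 to 4.37 CPM with halofuginone. Mcm3 ranged from 2.84 to 4.78 and from 3.28 to 4.54 CPM, Mcm4 from 2.52 to 4.72 and from 3.32 to 5.89 CPM, Mcm5 from 0.606 to 1.70 and from 1.31 to 1.74 CPM, and Mcm6 from 2.88 to 4.01 and from 2.15 to 3.92 CPM. In fat the subunits of the same hexamer differed in direction. Mcm5 was at 13.01, 13.8 and 12.7 CPM with vehicle and 4.76, 7.48 and 10.3 CPM with halofuginone (log2 fold change −0.81, SE 0.29, adjusted p = 0.321), and Mcm6 at 35.9, 37.4 and 45.7 CPM with vehicle and 21.1, 29.2 and 33.2 CPM with halofuginone (log2 fold change −0.51, SE 0.21, adjusted p = 0.360). Both were lower in every treated library. Mcm4 was at 19.9, 16.2 and 22.1 CPM with vehicle and 22.5, 24.7 and 22.9 CPM with halofuginone, above the vehicle range in every treated library but with an unadjusted p of 0.149. Mcm2 (10.2 to 16.6 CPM over the 6 libraries) and Mcm3 (25.8 to 31.5 CPM) overlapped.

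Rrm1 and Rrm2 encode the subunits of ribonucleotide reductase, which makes deoxynucleotides. Rrm2, the subunit that is made in S phase, was at 6.36, 6.44 and 10.5 CPM with vehicle and 1.53, 3.16 and 3.74 CPM with halofuginone in fat, lower in every treated library (log2 fold change −1.46, SE 0.41, adjusted p = 0.231). Rrm1 was at 32.7, 36.3 and 38.96 CPM with vehicle and 20.6, 25.1 and 33.2 CPM with halofuginone in fat, with an unadjusted p of 0.0642. In liver Rrm2 spread widely among treated replicates, from 0.932 to 5.63 CPM against 3.88 to 7.97 CPM in vehicle, and Rrm1 ranged from 7.79 to 9.70 CPM against 7.09 to 10.9 CPM. Pcna, the sliding clamp of DNA polymerases, was among the more abundant of the 40 genes. It ranged from 19.2 to 20.5 CPM in vehicle liver and from 19.9 to 23.7 CPM in treated liver, and was at 94.5, 74.5 and 171.3 CPM with vehicle and 79.4, 106.2 and 80.6 CPM with halofuginone in fat. Tyms, thymidylate synthase, ranged from 4.01 to 5.24 CPM in vehicle liver, 4.13 to 5.48 CPM in treated liver, 5.76 to 7.79 CPM in vehicle fat and 6.23 to 7.34 CPM in treated fat. The summed level of the 10 genes in liver was 59.1 to 66.8 CPM with vehicle and 69.3 to 75.2 CPM with halofuginone, and in the group means Mcm7 went from 9.61 to 17.0 CPM of it.

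Of the 9 G1 genes in liver, Ccnd1, Ccnd3 and E2f1 fell. The summed level of the 9 genes was 126 to 151 CPM with vehicle and 85.0 to 111 CPM with halofuginone, and in the group means Ccnd1 went from 41.4 to 10.2 CPM of it. Ccnd1 (ENSMUSG00000070348), cyclin D1, the mitogen-responsive partner of Cdk4 and Cdk6, was at 41.9, 31.6, 40.3, 50.2 and 42.8 CPM with vehicle and 12.7, 5.11, 8.87, 8.87 and 15.4 CPM with halofuginone. The groups were far apart, and the fall of 4.07-fold was the largest of the 31 members tested in liver (log2 fold change −2.03, SE 0.25, adjusted p = 0.00173). Leaving out any single library kept the call (log2 fold changes −2.22 to −1.86). E2f1 (ENSMUSG00000027490), a transcription factor of S phase genes, was at 2.38, 2.66, 2.80, 3.66 and 2.10 CPM with vehicle and 1.49, 0.485, 0.787, 0.656 and 0.782 CPM with halofuginone. No treated liver reached the vehicle range, replicate 1 was again the highest of them, and the fall was 3.27-fold (log2 fold change −1.71, SE 0.28, adjusted p = 0.00504). The call of E2f1 was also kept without any single library (−2.01 to −1.58). Ccnd3 (ENSMUSG00000034165), cyclin D3, was at 26.8, 34.1, 27.6, 26.4 and 23.9 CPM with vehicle and 26.6, 18.5, 18.3, 18.4 and 16.4 CPM with halofuginone, with treated replicate 1 inside the vehicle range and the other 4 below it (log2 fold change −0.50, SE 0.14, adjusted p = 0.0278). It missed the threshold when vehicle replicate 2 or 3, or any treated replicate other than the first, was left out (adjusted p 0.0525 to 0.0738), and in 1 fit of all 16 libraries (adjusted p = 0.0713).

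In fat the D-type cyclins did not follow this order. Ccnd1 was at 31.1, 40 and 60.2 CPM with vehicle and 22.3, 32.02 and 37.6 CPM with halofuginone, Ccnd2 at 181.4, 102.6 and 128.8 CPM with vehicle and 163.6, 137 and 205.6 CPM with halofuginone and Ccnd3 at 106.4, 146.1 and 72.03 CPM with vehicle and 102.3, 99.3 and 121 CPM with halofuginone, and all 3 overlapped between groups, with unadjusted p of 0.128, 0.294 and 0.974. E2f1 was at 20.9, 22.6 and 21.9 CPM with vehicle and 10.9, 11.4 and 13.4 CPM with halofuginone in fat (log2 fold change −0.87, SE 0.16, adjusted p = 0.141). The libraries of each group were close together and did not overlap. Ccne1, cyclin E1, the partner of Cdk2 at the start of S phase and a target of E2F, was at 3.90, 3.16 and 4.21 CPM with vehicle and 1.36, 2.14 and 1.74 CPM with halofuginone (log2 fold change −1.10, SE 0.34, adjusted p = 0.268), lower in every treated library. Ccne2 was at 2.52, 1.33 and 4.21 CPM with vehicle and 1.36, 1.95 and 1.11 CPM with halofuginone, with overlap. In liver Ccne1 ranged from 0.634 to 2.42 CPM with vehicle and from 0.522 to 1.42 CPM with halofuginone, and Ccne2 from 1.55 to 2.52 and from 1.23 to 3.04 CPM.

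The kinases of G1 and S phase overlapped between the groups. Cdk4 was at 31.3 to 38.6 CPM in vehicle liver and 34.4 to 45.0 CPM in treated liver, and at 72.3, 78.3 and 90.9 CPM with vehicle and 79.3, 100.3 and 90.7 CPM with halofuginone in fat. Cdk2 was at 4.87 to 6.34 CPM in vehicle liver and 3.91 to 9.19 CPM in treated liver, the highest of them being replicate 1, and at 16.9, 19.4 and 16.1 CPM with vehicle and 16.3, 18.8 and 15.7 CPM with halofuginone in fat. Cdk6 was at 10.2 to 17.4 CPM and 10.2 to 16.6 CPM in liver, and at 16.8, 18.4 and 48.02 CPM with vehicle and 10.02, 14.4 and 17.1 CPM with halofuginone in fat, where vehicle replicate 3 was the highest (unadjusted p = 0.0593). None of these 3 kinases was called in either tissue, and Ccnd2 was not called in liver either (6.34 to 9.88 CPM with vehicle and 5.02 to 7.98 CPM with halofuginone).

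Of the inhibitors, Cdkn2c rose in liver. Cdkn2c (ENSMUSG00000028551), the INK4-type inhibitor p18 of Cdk4 and Cdk6, was at 2.02, 2.71, 2.52, 2.80 and 1.999 CPM with vehicle and 4.17, 4.62, 3.72, 2.93 and 3.17 CPM with halofuginone, with every treated liver above the vehicle range (log2 fold change 0.63, SE 0.17, adjusted p = 0.0258). It missed the threshold when vehicle replicates 1 or 5, or treated replicates 2 or 3, were left out (adjusted p 0.0569 to 0.0621). Cdkn1b, the inhibitor p27 of resting cells, was at 16.3, 16.1, 16.03, 14.5 and 15.7 CPM with vehicle and 17.3, 19.4, 17.2, 22.2 and 18.7 CPM with halofuginone, also above the vehicle range in every treated liver but just short of the threshold (log2 fold change 0.27, SE 0.09, adjusted p = 0.0513). Cdkn1a, the p53-induced inhibitor p21, was the most variable of the 3 in liver, at 28.6, 8.97, 23.9, 9.82 and 8.10 CPM with vehicle and 2.24, 45.3, 19.5, 23.2 and 19.6 CPM with halofuginone. Its treated replicate 1 was the lowest of all 10 livers and its treated replicate 2 the highest, and no difference was called (log2 fold change 0.47, SE 0.59, adjusted p = 0.578). In fat, Cdkn1a was at 164.6, 122.8 and 96.6 CPM with vehicle and 242.5, 173.1 and 124.6 CPM with halofuginone, Cdkn1b at 40.5, 29.1 and 34.8 CPM with vehicle and 52.6, 55.2 and 36.2 CPM with halofuginone and Cdkn2c at 43.3, 60.4 and 37.7 CPM with vehicle and 33.5, 30.7 and 39.4 CPM with halofuginone, each with overlap.

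Whether halofuginone acted differently on these genes in fat and liver was tested as an interaction over all 16 libraries, a positive difference meaning a higher log2 fold change in fat. None of the 40 genes was called in edgeR's quasi-likelihood test, beside 0.949% of the 14853 genes tested. At an unadjusted p under 0.05 there were 7 of the 40, near the 15.7% of all genes. Of those 7, the log2 fold changes of Ccnd1 and E2f1 were less negative in fat. Those of Cdkn2c, Kif20a, Mcm5, Rrm1 and Mcm7 were lower in fat relative to liver. Cdkn2c, higher in treated liver and with a negative log2 fold change in fat (0.63 and −0.45), had the smallest adjusted p (difference −1.10, SE 0.28, adjusted p = 0.0712). Ccnd1 followed (difference 1.5, SE 0.40, adjusted p = 0.0840). DESeq2 called Ccnd1 and Cdkn2c (adjusted p = 0.0176 and 0.0213), and edgeR without halofuginone liver replicate 1 called Ccnd1, E2f1 and Cdkn2c (adjusted p = 0.0344, 0.0291 and 0.0368). Of the mitotic genes, 15 of 18 had a more negative log2 fold change in fat than in liver and 1, Kif20a, passed an unadjusted p of 0.05. This test did not show a difference between the tissues in the mitotic genes.

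Other genes of the same pathways were taken from lists chosen by function, also with earlier results of these data known. Their counts stand beside 10.5% falls and 12.7% rises among all genes tested in liver, and 7.91% lower and 5.50% higher at an unadjusted p under 0.05 in fat. Among 40 other mitotic genes, 3 of 19 tested fell in liver and 0 rose. These were Ube2c, the ubiquitin-conjugating enzyme of the anaphase-promoting complex, Ect2, which acts in cytokinesis, and Spc24, a kinetochore subunit. The rest of the 40 had too few counts to be tested, and a gene low under halofuginone can pass the count filter through its vehicle libraries. The split of falls and rises in this list is therefore no support for a direction. Ube2c was at 0.615 ± 0.0789 CPM with vehicle and 0.169 ± 0.0629 CPM with halofuginone (SD, n = 5 each), with no overlap (log2 fold change −1.85, SE 0.29, adjusted p = 0.00444). Ect2 had a log2 fold change of −1.67 (SE 0.48, adjusted p = 0.0309) and Spc24 of −1.34 (SE 0.42, adjusted p = 0.0399), both with overlap. In fat, 28 of 39 tested were lower at an unadjusted p under 0.05 and 0 higher. All treated libraries were below all vehicle libraries for 27, beside 10.4% of all genes tested in fat. The list's median log2 fold change in fat was −1.46. None was called.

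Among 39 other replication genes, 5 of 35 tested rose in liver and 1 fell, near the 12.7% of all genes that rose and under the 10.5% that fell. Prim1, the primase catalytic subunit, rose (log2 fold change 0.97, SE 0.23, adjusted p = 0.0160), as did Orc3 of the origin recognition complex (0.55, SE 0.15, adjusted p = 0.0275). In fat, 4 of 38 were lower and 1 higher at an unadjusted p under 0.05. The medians of this list were 0.02 in liver and −0.23 in fat.

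Among 18 regulators of the RB, E2F and DREAM circuit, 1 of 14 tested fell in liver and 1 rose. E2f8, a repressor of the E2F family, fell from 23.6 ± 19.3 to 5.52 ± 4.27 CPM (SD, n = 5 each; log2 fold change −2.11, SE 0.62, adjusted p = 0.0329), with wide spread among the vehicle livers and overlap. Rbl1, which encodes the pocket protein p107, rose (0.69, SE 0.23, adjusted p = 0.0483). In fat 4 of 17 were lower and 1 higher at an unadjusted p under 0.05. Among 16 other kinases, phosphatases and inhibitors, 4 of 12 tested rose in liver and 0 fell. They were Fbxw7, a ubiquitin ligase subunit that marks cyclin E for degradation (0.97, SE 0.22, adjusted p = 0.0136), Fzr1, an activator of the anaphase-promoting complex (0.37, SE 0.10, adjusted p = 0.0271), Mnat1 of the Cdk-activating kinase (0.60, SE 0.17, adjusted p = 0.0286), and Cdc25a, whose adjusted p was 0.0308. In fat 1 of 16 was lower and 1 higher at an unadjusted p under 0.05.

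Among 23 p53 targets and growth arrest genes, 3 of 22 tested rose in liver and 1 fell, again near or under the shares of all genes. Gadd45a, a stress-induced growth arrest gene, rose from 2.75 ± 0.537 to 32.3 ± 17.9 CPM (SD, n = 5 each; log2 fold change 3.56, SE 0.58, adjusted p = 0.00483), the lowest treated liver at 2.48 CPM being inside the vehicle range. Sesn2, a stress-induced inhibitor of mTORC1, rose with no overlap (1.81, SE 0.26, adjusted p = 0.00326), and Fas, the death receptor, fell with no overlap (−0.74, SE 0.14, adjusted p = 0.00724). In fat 7 of 23 were higher and 2 lower at an unadjusted p under 0.05. Among 15 mitogens, receptors and early response genes, Myc rose in liver (1.53, SE 0.48, adjusted p = 0.0399) and Jun fell (−0.73, SE 0.20, adjusted p = 0.0249), both with overlap, of 11 tested. In fat 2 of 13 were higher and 1 lower at an unadjusted p under 0.05.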

How the data were processed

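The authors sequenced poly(A)-selected RNA (Trizol, oligo(dT) beads, NEBNext Ultra kit, per the labels' protocols) of mouse liver and white adipose tissue. The submitters' processing notes name fastp 0.18.0, Bowtie2 2.2.8, HISAT2, StringTie 1.3.1 and RSEM and the build mm39, with no role or order, so which program counted the reads, and whether strand was used, is not given in the sources used here. Per the file headers, the deposited tables give each library 2 columns, counts and FPKM (scaled by gene length and library size), for the same 22322 genes. The deposited counts are whole numbers, but 1 to 10 genes per liver library and 9 to 31 per fat library are at 0 counts but above 0 FPKM, and the counts may be rounded estimates. Reads of near-identical or overlapping genes may have been split. Symbols were looked up by identifier, and 0 sample columns were left unmapped.

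The members and all lists were chosen with earlier results of these data known. Each tissue was fitted alone on the counts with edgeR's quasi-likelihood test (edgeR 4.0.16, R 4.3.3; filterByExpr, TMM factors, two-sided), p-values were adjusted over all genes tested by Benjamini-Hochberg, and genes were called at an adjusted p under 0.05. Unadjusted p-values come from the same tests. SE is the absolute log2 fold change over the square root of F. The contrast was an interaction over 16 libraries, taken as independent. The tests were tried on simulated data. Alternatives were DESeq2 1.42.0, its size factors, library size alone, no filter or at least 1 CPM, a replicate block, 1 fit of all 16 libraries, limma 3.58.1 on log2(FPKM + 1) or log2(FPKM + 0.1) for genes with a mean of at least 1 FPKM, and leaving out each library. All members are named. Fold change, SE and adjusted p are given for called members, for fat members with an unadjusted p under 0.05, and for some others, such as Mki67 in liver, chosen after their values were seen, and for at most 3 called genes per other list. No pair of libraries of a group agreed within sampling noise (smallest chi-square per degree of freedom 29.7 in liver and 50.5 in fat). Counts without molecular identifiers give precision for counting error only.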

Additional observations from a re-analysis of the deposited data

Results flagged for a closer look

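In groups of 5 livers, the top or bottom library was marked when it lay away from its nearest neighbour by more than 0.71 of the group's whole range, which chance does in about 1 of 20 groups. Of 90 groups looked at, 9 were marked, and 7 of them for halofuginone replicate 1. That library was the highest treated liver for Bub1 (0.298 CPM, next 0.0772), Bub1b (0.894, next 0.502), Plk1 (0.546, next 0.112), Kif11 (1.09, next 0.386), Cenpf (0.447, next 0.112), Ccnd3 (26.6, next 18.5) and the sum of the 18 mitotic genes (12.5 CPM, next 6.23). These 7 share 1 library and are not independent. Its macrophage and T and NK cell marker sums were also the highest of the 10 livers, and on the first principal component of all tested genes it lay at −20.7, next to the vehicle livers (−29.6 to −22.7) and not with the other treated ones (24.9 to 49.2). The part of either in these levels was not tested. Rrm1 in halofuginone replicate 4 was low at 7.79 CPM (next 9.57). Cdk4 in vehicle replicate 1 was low at 31.3 CPM (next 37.9).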

How the results depend on the processing

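In liver, Ccnd1, E2f1, Cdk1 and Mcm7 were called under every alternative that tested them. The number of members called (8) was 5 with the replicate block (without Aurka, Tpx2 and Cdkn2c) and ran from 5 to 16 on leaving out single libraries, and the number of genes called (2850) from 1275 to 5312. The median of the tested members (−0.25) was −0.087 with library size alone, −0.60 with DESeq2, −0.58 with no filter and also with 1 fit of all 16 libraries, 0.036 at 1 CPM or more, and 0.14 and 0.22 on log2 FPKM with pseudocounts of 1 and 0.1, over the 24 to 40 members (17 for FPKM) each tested. Left-out libraries gave −0.34 to −0.20. In fat, members called (0) were 15 with DESeq2 and 6 with 1 fit of all 16 libraries. Genes called (0) were 671, 334, 1 with no filter, 13 on log2 FPKM with a pseudocount of 1, and 0 to 1 on leaving out single libraries. The fat median (−0.95) was −0.54 on log2 FPKM with a pseudocount of 1 and −1.14 to −0.68 without single libraries, and members lower at an unadjusted p under 0.05 (22) were 17 to 24 under all alternatives. In the contrast, members called (0) were 2 with DESeq2 and 0 to 3 without single libraries, and genes called (141) were 686 with DESeq2, 2 with the replicate block and 34 to 1053 without single libraries. Same-numbered samples did not pair: correlations of their deviations ran from −0.19 to 0.12 in liver (1 of 5 over 0.1), −0.60 to 0.18 in fat (1 of 3) and −0.15 to 0.26 between liver and fat (3 of 6). With the block, fat called 0 members and the contrast 0. Where values moved, the cause was not tested, except that filters changed which members were tested. Depth limits the mitotic genes of liver most, at 0 to 66 counts per library.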
